A study of Mus musculus with 12 samples.

Results

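The genes described here encode receptors, kinases, a transcription factor and a feedback inhibitor of IL-6 family and STAT3 signalling. They were chosen by name, as 9 of the 24187 genes in the count table, and all 9 passed the filter on low counts that left 22581 genes for testing. The members are the receptor genes Il6ra, Il6st, Osmr, Lifr and Il10rb, the kinase genes Jak1 and Jak2, the transcription factor gene Stat3 and the feedback inhibitor gene Socs3. Their transcripts were measured by bulk RNA sequencing of whole liver from C57BL/6J mice in 3 groups. The study's methods also name the substrain C57BL/6JOlaHsd for mice given APAP. The control group held 3 untreated mice. The APAP vehicle group held 5 mice given 350 mg/kg acetaminophen (APAP), whose overdose kills hepatocytes around the central vein, followed by phosphate-buffered saline. The APAP hAAM group held 4 mice given the same dose of APAP followed by human alternatively activated macrophages, which were grown from blood monocytes and polarised with IL-4 and IL-13. Cells or vehicle were given 16 h after APAP in this injury model, in mice of 10 to 12 weeks. The dose is that of the labels, whereas the paper presents these livers with its more severe model, in which a higher dose was given, so the dose of the sequenced livers is uncertain. The interval from APAP to collection of the sequenced livers is not given in their labels. The study's methods describe fasting before APAP or saline in this model, whereas the labels call the sequenced control mice untreated. Reads were aligned to the mouse genome alone, so transcripts of the infused human cells were not counted as such.

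IL-6, oncostatin M, leukaemia inhibitory factor and their relatives bind receptors that share one signalling chain, gp130, the product of Il6st. Each ligand is recognised through a partner chain, such as the IL-6 receptor, the oncostatin M receptor or the LIF receptor, and JAK kinases bound to the chains then phosphorylate STAT3. Phosphorylated STAT3 enters the nucleus and switches on target genes, among them Socs3, whose protein blocks gp130 signalling in return. In liver this route drives the acute-phase response, in which hepatocytes secrete serum amyloid A, C-reactive protein and fibrinogen, and it is known for its part in regeneration. Transcript levels do not measure phosphorylation, so the values below are levels of messenger RNA and not of pathway activity.

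Total counts ranged from 47391650 to 74056505 per liver. Defining hepatocyte markers were high in every liver, with a summed level of 56830 to 88120 counts per 1000000 counts (CPM) in control, 65180 to 94070 CPM in APAP vehicle and 68850 to 97910 CPM in APAP hAAM livers. Counts of the Y-linked gene Ddx3y (3064 to 4281) and of Xist (10 to 149) were of one kind in all 12 livers. APAP vehicle replicate 3 and APAP hAAM replicate 4, labelled as different mice in different groups, differed by 1.42 times counting noise, while the other 65 pairs of livers differed by 5.57 to 50.4 times. The pair lies across the 2 treatments, and whether both libraries came from different mice, as labelled, was not tested. Results are therefore also given without this pair. Control replicate 1 stood apart from the other control livers in Socs3 and in several genes that respond to STAT signalling, and results that rest on it are given without it.

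Among the 9 members, messenger RNA fell for the shared receptor chain, the LIF receptor, Stat3 and Socs3 in APAP livers of both treatments. It rose for Il10rb, which encodes a receptor chain for IL-10 and related cytokines. In APAP vehicle against control, edgeR's quasi-likelihood test with Benjamini-Hochberg adjustment called 5 of 9 members at a false discovery rate (FDR) under 0.05. Of these, 4 were lower and 1 was higher, beside a background of 29.8% of all tested genes called (14.8% lower and 15.0% higher). In APAP hAAM against control, 5 of 9 members were called, again 4 lower and 1 higher, beside a background of 20.7% (9.96% lower and 10.7% higher). Between APAP hAAM and APAP vehicle, 0 of 9 members were called, 0 by DESeq2, and 0 had an unadjusted p under 0.05, beside a background of 0% of genes called. Across all genes that comparison held 1133 genes at an unadjusted p under 0.05, and DESeq2 called 1 gene. The median log2 fold change over the 9 members was -0.19 in APAP vehicle and -0.13 in APAP hAAM against control, beside 0.01 and 0.02 over all genes tested. The split of the background by direction depends on the scaling: with library size alone, 8637 genes were called higher and 1110 lower in APAP vehicle, and 6559 and 781 in APAP hAAM livers. Both comparisons share the 3 control livers. Without the near-identical pair the counts were again 5, 5 and 0 members, and the same counts were found without control replicate 1. The call on Il10rb was lost in 6 of 12 fits without 1 liver in APAP vehicle and in 7 of 12 in APAP hAAM livers, which left 4 members, all lower.

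**Figure D1:**
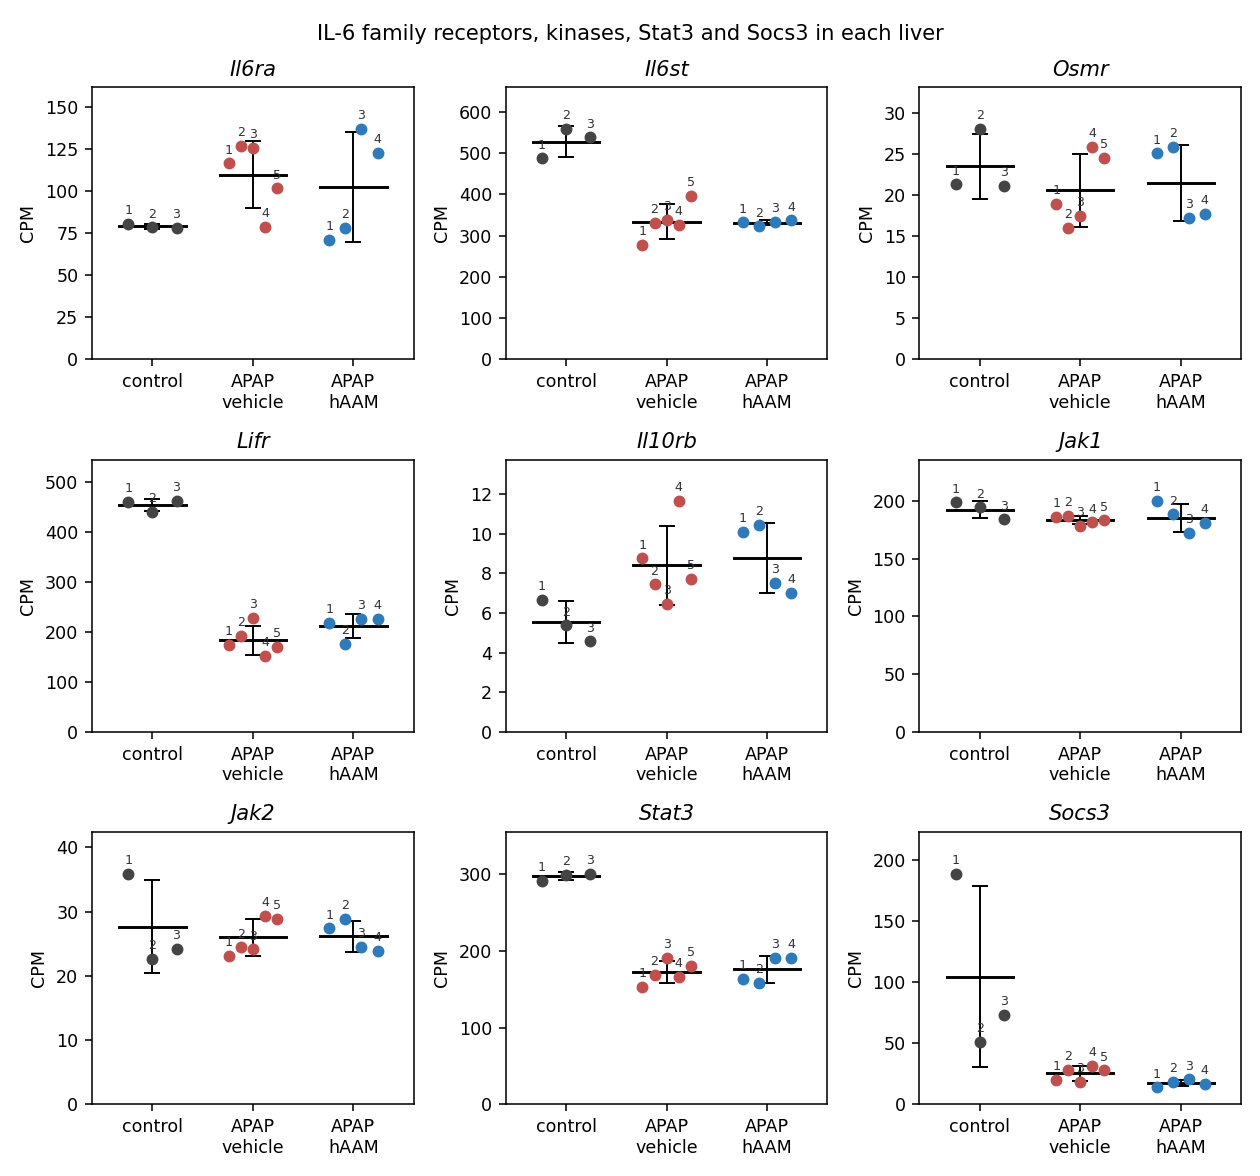
Level of each of the 9 genes in every liver, in CPM on a linear axis from 0, with points numbered by replicate, horizontal lines for group means and bars for the SD (n = 3 control, 5 APAP vehicle, 4 APAP hAAM). Il6st, Lifr, Stat3 and Socs3 lie below every control liver in all 9 APAP livers, and control replicate 1 stands apart for Socs3 and Jak2.

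The promoters of the 4 members that fell are shown because STAT3 is known to bind the spaced palindrome TTCNNNGAA, and because the 4 genes moved in the same direction. A RefSeq promoter window (GRCm38.p6, 250 bases before to 50 after the annotated start) was found for 8 of the 9 members, with none for Il10rb. Of 32851 windows of 300 bases, 8.3% held the palindrome, which reads the same on both strands. Among the 9 windows of the members, of which Lifr has more than 1, it was found in 1, that of Socs3. Of the bases before the RefSeq start, those ahead of the first exon base that GENCODE annotates in the window are printed 5′ to 3′ on the strand of the gene, with the palindrome in capitals. For Socs3 and Lifr these stretches lie inside the annotated gene bounds, between annotated exons, because longer transcripts start further upstream. Those upstream starts lie outside the windows searched. A match is a description of letters and not of binding.
Socs3 (chr11:117969452-117969616, minus strand): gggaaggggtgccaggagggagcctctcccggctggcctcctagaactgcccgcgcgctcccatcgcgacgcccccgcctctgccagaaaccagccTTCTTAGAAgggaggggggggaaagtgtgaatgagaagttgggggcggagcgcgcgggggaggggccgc
Lifr (chr15:7129322-7129558, plus strand): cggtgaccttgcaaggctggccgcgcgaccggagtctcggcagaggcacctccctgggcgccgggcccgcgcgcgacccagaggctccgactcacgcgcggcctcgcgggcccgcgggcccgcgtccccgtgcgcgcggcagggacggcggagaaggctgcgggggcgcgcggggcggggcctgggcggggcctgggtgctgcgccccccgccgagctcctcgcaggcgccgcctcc
Il6st (chr13:112463820-112464069, plus strand): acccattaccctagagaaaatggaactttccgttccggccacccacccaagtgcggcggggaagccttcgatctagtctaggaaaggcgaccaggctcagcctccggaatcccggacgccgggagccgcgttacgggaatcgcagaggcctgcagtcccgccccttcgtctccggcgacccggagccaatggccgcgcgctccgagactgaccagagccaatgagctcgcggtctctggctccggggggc
Stat3 (chr11:100939541-100939790, minus strand): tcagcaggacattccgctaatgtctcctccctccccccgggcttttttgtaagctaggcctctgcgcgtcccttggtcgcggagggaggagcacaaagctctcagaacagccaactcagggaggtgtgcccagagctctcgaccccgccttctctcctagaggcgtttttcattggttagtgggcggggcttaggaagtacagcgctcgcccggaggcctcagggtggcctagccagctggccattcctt
In Socs3 the palindrome starts 154 bases before the RefSeq start site. The GC content of the 300-base windows was 73.3% for Socs3, 81.3% for the printed Lifr start, 68.3% for Il6st and 60.7% for Stat3, beside a median of 52.7% over all windows. It was 53.3% for the other Lifr start, which is not printed.

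Il6st encodes gp130, the chain shared by the receptors for IL-6, oncostatin M and leukaemia inhibitory factor, and lies on chromosome 13 from 112464070 to 112510086 on the plus strand. Its level was 487, 559 and 538 CPM in control livers 1 to 3, and 278, 331.5, 338, 326 and 397 CPM in APAP vehicle livers 1 to 5. In APAP hAAM livers 1 to 4 it was 333, 322, 334 and 337 CPM. The lowest control liver was above the highest APAP liver, so neither APAP group overlapped with control. Against control, Il6st was 1.58-fold lower in APAP vehicle livers (log2 fold change -0.66, SE 0.106, FDR 0.00124) and 1.59-fold lower in APAP hAAM livers (-0.67, SE 0.112, FDR 0.00276). The 4 APAP hAAM livers were close together, with a coefficient of variation of 1.94%, compared with 12.7% in the 5 APAP vehicle livers and 7.01% in the control livers. The difference between the treatments was -0.01 on the log2 scale (SE 0.0989, FDR 1.00), and the groups overlapped.

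Lifr encodes the receptor chain that pairs with gp130 for leukaemia inhibitory factor, and lies on chromosome 15 from 7090614 to 7197489 on the plus strand. It stood at 459.9, 440.4 and 462 CPM in control livers and at 174, 193, 229, 152 and 169.6 CPM in APAP vehicle livers 1 to 5. APAP hAAM livers 1 to 4 held 218, 175.5, 226 and 226 CPM. All APAP livers lay below all control livers, and hAAM replicate 2 was the lowest of its group. The fall was 2.48-fold in APAP vehicle (log2 fold change -1.31, SE 0.127, FDR 7.6e-05) and 2.15-fold in APAP hAAM livers (-1.10, SE 0.135, FDR 0.000523). Between the treatments Lifr was higher by 0.21 on the log2 scale in APAP hAAM livers (SE 0.119, FDR 0.969), the groups overlapped, and the difference did not pass the test.

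Il6ra encodes the IL-6 receptor, which binds IL-6 and presents it to gp130, and lies on chromosome 3 from 89864059 to 89913196 on the minus strand. The control livers were within a narrow range, at 80.4, 78.4 and 78.1 CPM, with a coefficient of variation of 1.57%. APAP vehicle livers 1 to 5 held 116, 127, 125, 78.6 and 102 CPM, and APAP hAAM livers 1 to 4 held 71.2, 78.2, 137 and 123 CPM. Vehicle replicate 4 and hAAM replicate 2 lay within the control range, hAAM replicate 1 below it and the other 6 APAP livers above it. The coefficient of variation was 18.3% in APAP vehicle and 31.8% in APAP hAAM livers. The log2 fold change against control was 0.48 in APAP vehicle (SE 0.215, FDR 0.115) and 0.37 in APAP hAAM livers (SE 0.224, FDR 0.256), and neither passed the test. Both passed with scaling by library size alone (0.81, FDR 0.0038, and 0.65, FDR 0.0186). In APAP vehicle it also passed with only the 2 groups compared (0.48, FDR 0.0369). Of its 8642 exon bases, 242 overlap the antisense gene Gm42809, and whether the counting used strand is not given in the sources used here.

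Osmr encodes the oncostatin M receptor chain and lies on chromosome 15 from 6813577 to 6874969 on the minus strand, near Lifr. It was measured at 21.3, 28.1 and 21.2 CPM in control livers and at 18.9, 16.1, 17.5, 25.9 and 24.6 CPM in APAP vehicle livers 1 to 5. The APAP hAAM livers 1 to 4 had 25.1, 25.9, 17.3 and 17.8 CPM. The 3 groups overlapped, and each APAP liver lay below or within the control range. Log2 fold changes against control were -0.19 (SE 0.19, FDR 0.474) and -0.13 (SE 0.199, FDR 0.682) in APAP vehicle and APAP hAAM livers.

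Il10rb, on chromosome 16 from 91406164 to 91425834 on the plus strand, encodes the second chain of the receptors for IL-10, IL-22 and related cytokines, which also act through STAT3. It was measured at 6.65, 5.38 and 4.56 CPM in control livers. APAP vehicle livers 1 to 5 held 8.76, 7.45, 6.47, 11.6 and 7.71 CPM, and APAP hAAM livers 1 to 4 held 10.1, 10.4, 7.51 and 7.0 CPM. Every APAP hAAM liver was above every control liver, while vehicle replicate 3 fell below control replicate 1. Il10rb rose 1.52-fold in APAP vehicle (log2 fold change 0.60, SE 0.206, FDR 0.0438) and 1.58-fold in APAP hAAM livers (0.66, SE 0.215, FDR 0.0462). Both calls lie close to the threshold. The first was lost without control replicate 2 or 3 or without vehicle replicate 1, 2, 4 or 5, with an FDR up to 0.163. The second was lost without control replicate 2 or 3, vehicle replicate 1, 2 or 5 or hAAM replicate 1 or 2, with an FDR up to 0.161. Of its 3808 exon bases, 569 are shared with Gm21970 on the same strand, so part of its count could not be assigned to one gene with certainty.

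Monocyte and macrophage markers moved with Il10rb, a gene widely expressed in leucocytes. Of the 7 markers of monocytes and recruited macrophages, 6 were called higher in each APAP group, and their summed level was 49.1 to 63.8 CPM in control, 124 to 255 CPM in APAP vehicle and 122 to 322 CPM in APAP hAAM livers. Of 5 Kupffer cell markers, 1 was called higher in each APAP group. Summed hepatocyte markers overlapped between the groups, with 1 of 6 markers called lower in APAP vehicle livers. The summed level of 5 neutrophil markers also overlapped, at 6.97 to 28.1 CPM in control, 10.7 to 44.3 CPM in APAP vehicle and 11.5 to 40.6 CPM in APAP hAAM livers. Of 5 red cell markers, 4 were called higher and 1 lower in APAP vehicle and 1 lower in APAP hAAM livers, with a summed level of 134.6 to 240.1 CPM in control, 220.4 to 2025 CPM in APAP vehicle and 225.9 to 733.4 CPM in APAP hAAM livers. Of 5 stellate cell and 5 sinusoidal endothelial cell markers, 2 each were called higher in both APAP groups. No marker of these lists was at 0 in any liver. The part of these cells in the members' levels was not tested, and in a bulk sample fewer cells of a type and less RNA per cell cannot be told apart.

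Jak1 and Jak2 encode kinases that associate with gp130 and its partner chains. Jak1, on chromosome 4 from 101152367 to 101265282 on the minus strand, stood at 199, 194.5 and 184 CPM in control, at 186, 187, 178.5, 181.5 and 183 CPM in APAP vehicle and at 199.8, 188, 172 and 181 CPM in APAP hAAM livers. Jak2, on chromosome 19 from 29251828 to 29313080 on the plus strand, was 35.9, 22.7 and 24.2 CPM in control livers. It was 23.2, 24.4, 24.1, 29.3 and 28.9 CPM in APAP vehicle and 27.4, 28.9, 24.5 and 23.9 CPM in APAP hAAM livers. Control replicate 1 had the highest Jak2 of all 12 livers, and the groups overlapped for both kinases. The log2 fold change of Jak1 against control was -0.07 (SE 0.0714, FDR 0.488) and -0.05 (SE 0.0747, FDR 0.639) in APAP vehicle and APAP hAAM livers. For Jak2 the values were -0.09 (SE 0.143, FDR 0.68) and -0.08 (SE 0.15, FDR 0.749). Neither kinase passed the test at these values. The signs turned for both kinases when counts were scaled by library size alone, where Jak1 in APAP vehicle passed (0.28, FDR 0.0489). Without control replicate 1 the sign of Jak2 turned as well (0.15, FDR 0.375, and 0.16, FDR 0.388).

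Stat3 encodes the transcription factor that gp130 activates, and lies on chromosome 11 from 100885098 to 100939540 on the minus strand. It was 291, 299 and 300.5 CPM in control livers, a coefficient of variation of 1.76%. APAP vehicle livers 1 to 5 held 153, 168, 191, 166 and 179.9 CPM, and APAP hAAM livers 1 to 4 held 163, 158, 190.4 and 191 CPM. The 9 APAP livers lay below the 3 control livers with a wide gap. Stat3 fell 1.73-fold in APAP vehicle (log2 fold change -0.79, SE 0.0937, FDR 0.000235) and 1.69-fold in APAP hAAM livers (-0.76, SE 0.099, FDR 0.000787). The treatments differed by 0.03 on the log2 scale (SE 0.0875, FDR 0.993). Stat3 shares 72 of its 9527 exon bases with Stat5a on the opposite strand.

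Socs3 encodes the feedback inhibitor that STAT3 induces, and lies on chromosome 11 from 117966079 to 117970047 on the minus strand. Control livers 1 to 3 held 189, 51.0 and 72.9 CPM, the widest spread of any member in any group, with a coefficient of variation of 71.0%. APAP vehicle livers 1 to 5 held 19.7, 28.4, 18.5, 31.7 and 27.8 CPM, and APAP hAAM livers 1 to 4 held 14.0, 18.5, 20.5 and 16.8 CPM. All APAP livers lay below the lowest control liver. Socs3 was 4.13-fold lower in APAP vehicle (log2 fold change -2.05, SE 0.336, FDR 0.00136) and 5.98-fold lower in APAP hAAM livers (-2.58, SE 0.366, FDR 0.00127), further from 0 than any other member with all livers. Without control replicate 1, Socs3 in APAP vehicle livers was level with Lifr (-1.30 for both), and the log2 fold changes of Socs3 were -1.30 (FDR 0.00293) and -1.83 (FDR 0.000985), both still called. The 2 treatment groups overlapped, and the difference of -0.53 on the log2 scale (SE 0.32, FDR 0.969) did not pass the test.

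**Figure D2:**
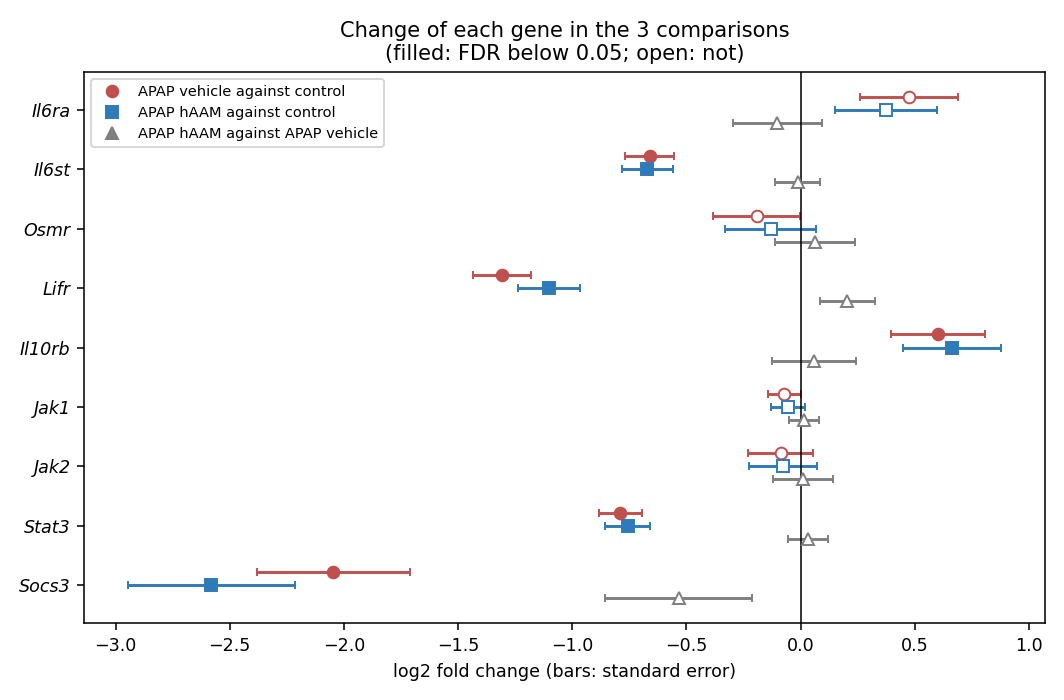
Log2 fold change of the 9 genes in each comparison from edgeR, with bars for the standard error, filled marks where the FDR was below 0.05 and open marks elsewhere. Il6st, Lifr, Stat3 and Socs3 lie left of 0 and Il10rb right of 0 with filled marks for both APAP groups against control, and no mark is filled for APAP hAAM against APAP vehicle.

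Counted by range rather than by test, 4 of 9 members did not overlap between APAP vehicle and control, all of them below, beside 34.8% of all genes tested. Between APAP hAAM and control 5 of 9 did not overlap, 4 below and 1 above, beside 28.5%. Between the treatments 0 of 9 were apart, beside 1.40% of all genes.

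Levels can be compared between genes only per length, as CPM per kilobase of exon. In control livers the order by mean was Il6st (47.6 ± 3.34, SD, n = 3), Lifr (42.1 ± 1.10), Socs3 (36.1 ± 25.6), Stat3 (31.2 ± 0.548), Jak1 (26.6 ± 1.04), Il6ra (9.13 ± 0.143), Jak2 (5.49 ± 1.44), Osmr (1.94 ± 0.328) and Il10rb (1.45 ± 0.276). Socs3 ranged from 17.7 to 65.3 CPM per kilobase, so its place among the 5 highest was not set by these livers, and the lowest Osmr (1.749) lay just above the highest Il10rb (1.747). In APAP vehicle livers the order was Il6st (30.1), Jak1 (25.4), Stat3 (18.0), Lifr (17.0), Il6ra (12.7), Socs3 (8.72), Jak2 (5.17), Il10rb (2.21) and Osmr (1.70). The ranges of Il6st and Jak1, of Stat3 and Lifr, of Lifr and Il6ra, of Il6ra and Socs3 and of Il10rb and Osmr overlapped among those 5 livers. In APAP hAAM livers the order was Il6st (29.9), Jak1 (25.6), Lifr (19.6), Stat3 (18.4), Il6ra (11.8), Socs3 (6.03), Jak2 (5.20), Il10rb (2.30) and Osmr (1.78). There Il6st stayed above Jak1 in range, while Lifr and Stat3, Socs3 and Jak2, and Il10rb and Osmr overlapped.

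**Figure D3:**
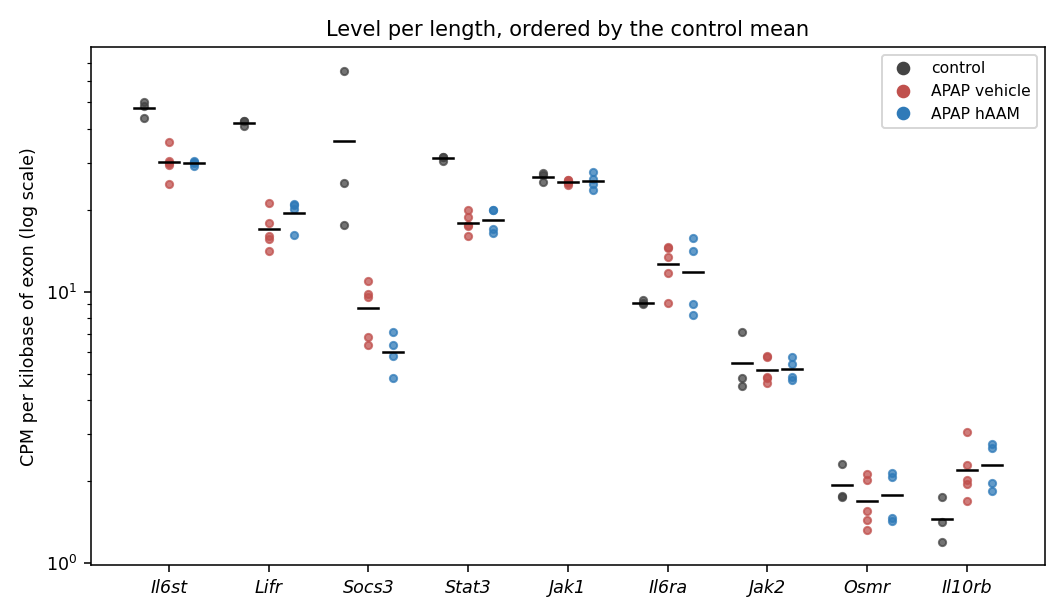
Level of the 9 genes in CPM per kilobase of exon on a log axis, ordered by the control mean, with one point per liver and a black line for each group mean. Il6st, Lifr, Stat3 and Socs3 shift down in both APAP groups while Jak1 stays at 25.4 to 26.6 on average, so that Jak1 takes the second place in APAP livers.

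Because gp130 pairs with partner chains, the balance of the chains was described by ratios within a liver, which do not move with scaling between libraries and which were not tested. The log2 ratio of Il6ra to Il6st was -2.74 ± 0.124 in control (SD, n = 3), -1.62 ± 0.364 in APAP vehicle (n = 5) and -1.75 ± 0.452 in APAP hAAM livers (n = 4). Every APAP liver had a higher ratio than every control liver. The log2 ratio of Osmr to Lifr was -4.28 ± 0.271 in control, -3.17 ± 0.497 in APAP vehicle and -3.31 ± 0.46 in APAP hAAM livers, again with no overlap between APAP and control. The log2 ratio of Osmr to Il6st was -4.50 in control, -4.04 in APAP vehicle, where the ranges overlapped, and -3.97 in APAP hAAM livers, where they did not. The log2 ratio of Socs3 to Stat3 was -1.74 ± 0.999 in control, -2.80 ± 0.381 in APAP vehicle and -3.34 ± 0.223 in APAP hAAM livers. It was apart from control only in APAP hAAM livers, and control replicate 1 held the highest value at -0.62. Without control replicate 1 the difference from control was -0.50 in APAP vehicle and -1.04 in APAP hAAM livers, where it was -1.06 and -1.60 with all livers.

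Some APAP livers of each treatment differed in the same way in several receptor genes. Vehicle replicate 4, hAAM replicate 1 and hAAM replicate 2 had the lowest Il6ra of the 9 APAP livers (78.6, 71.2 and 78.2 CPM). The same 3 livers had the highest Osmr (25.9, 25.1 and 25.9 CPM) and the highest Il10rb (11.6, 10.1 and 10.4 CPM). Vehicle replicate 5 came next in Osmr, at 24.6 CPM. They also had the highest summed monocyte and recruited macrophage markers (255, 321.5 and 276 CPM), followed by vehicle replicate 1 at 237 CPM. Summed neutrophil markers were 44.2, 34.0 and 40.6 CPM in these livers and 44.3 CPM in vehicle replicate 5, above the 10.7 to 25.9 CPM of the other 5 APAP livers. The part of these cells in the pattern was not tested. These livers belong to both treatments, and they were described one by one and not compared as a group.

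**Figure D4:**
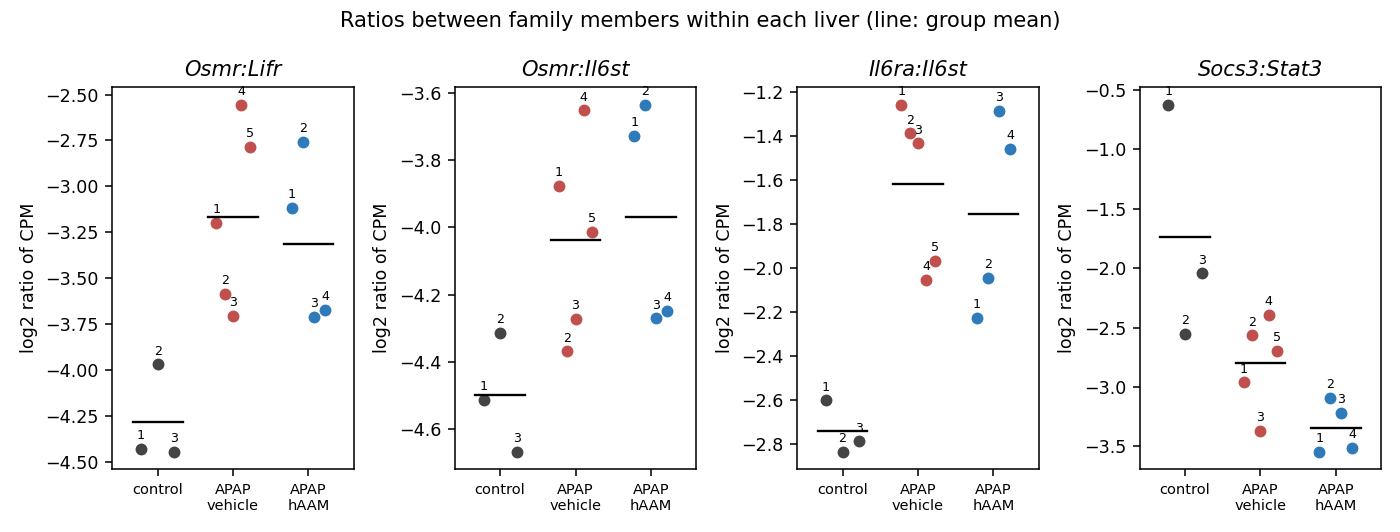
Log2 ratio of CPM between 2 members within each liver, with points numbered by replicate and lines for group means. For Il6ra to Il6st and Osmr to Lifr all 9 APAP livers lie above the 3 control livers, while for Socs3 to Stat3 the APAP vehicle livers overlap with control.

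For each member called in both APAP groups, the genes with the nearest profile were found among 11171 genes of mean log2 CPM 2 or more, by the root mean square difference of log2 CPM over the 12 livers after centring on the control mean. Nearest to Il6st were BC024978 and Cebpg, both at 0.0987. Cyb5b and Tfpi2 were nearest to Lifr, at 0.105 and 0.106. The genes nearest to Stat3 were Prr16 (0.0679) and Mfhas1 (0.079), and those nearest to Il10rb were Ptpn13 (0.0771) and Ikzf1 (0.12). Socs3 had no close neighbour by this measure, with Tacc2 at 0.446 and Ppp4r4 at 0.485. The measure is not scaled to the spread of a gene. The SD of log2 CPM over the control livers was 0.976 for Socs3 and 0.0255 for Stat3.

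The other genes of the pathway were taken from lists of 102 genes by role, of which 96 were in the count table and 93 were tested. In APAP vehicle against control, 12 were called higher and 35 lower, beside the background of 29.8% called in either direction. In APAP hAAM against control 7 were higher and 34 lower, beside 20.7%. The total of 41 dropped to 26 without control replicate 3, where the number called over all genes dropped from 4666 to 2419. Between the treatments 0 of 93 were called by edgeR or DESeq2, and 0 had an unadjusted p under 0.05. Without control replicate 1 the totals were 44 and 37, beside 4970 and 3027 called over all genes. Without the near-identical pair they were 50 and 37, beside 6743 and 4412.

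Ligand transcripts were scarce in whole liver. Il6 had 1 to 39 counts per control liver, with the 39 counts in control replicate 1, and 1 to 5 counts in APAP vehicle and 1 to 3 in APAP hAAM livers. It did not pass the filter. Osm held 1 to 9 counts in control, 3 to 26 in APAP vehicle and 3 to 13 in APAP hAAM livers, and Il11 at most 16 counts in any liver. Neither was called in the fit of all livers, and Osm was called higher in APAP vehicle without control replicate 1 (log2 fold change 3.48, FDR 0.0433). Of 10 ligand genes tested, 2 rose in APAP vehicle and 1 in APAP hAAM livers, near the shares of all genes called higher (15.0% and 10.7%). Clcf1, which encodes a ligand of the ciliary neurotrophic factor receptor, rose from 1.22 ± 0.036 CPM (SD, n = 3) in control to 6.59 ± 1.90 CPM in APAP vehicle (log2 fold change 2.43, SE 0.367, FDR 0.000912). In APAP hAAM livers it was 4.20 ± 1.96 CPM (1.78, SE 0.37, FDR 0.0074), and no APAP liver overlapped with control.

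Lif, the ligand of the receptor whose gene fell, was 0.762, 0.0786 and 0.138 CPM in control livers 1 to 3. It was 2.08, 4.20, 1.10, 2.97 and 2.97 CPM in APAP vehicle livers 1 to 5 and 4.22, 1.78, 0.213 and 1.2 CPM in APAP hAAM livers 1 to 4. Every APAP vehicle liver was above control, whereas hAAM replicate 3 lay within the control range. The difference passed the test in APAP vehicle (log2 fold change 3.05, SE 0.892, FDR 0.0232) and not in APAP hAAM livers (2.52, SE 0.906, FDR 0.0675). The first call was lost without control replicate 2 or 3, with an FDR up to 0.0873, and the value was 4.63 (FDR 0.0155) without control replicate 1. The second passed without control replicate 1 (4.10, FDR 0.036), without hAAM replicate 3 (2.90, FDR 0.019), with DESeq2 (2.49, FDR 0.0348) and with scaling by library size alone (2.87, FDR 0.0328). The median change of the 10 ligand genes was 0.65 and 0.57 on the log2 scale.

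Of 11 other receptor genes tested, 4 rose and 2 fell in APAP vehicle, beside 29.8% of all genes called, and 2 rose and 2 fell in APAP hAAM livers, beside 20.7%. Ifngr1, the ligand-binding chain for interferon gamma, rose 1.88-fold in both (log2 fold change 0.91, FDR 0.000696, and 0.91, FDR 0.0015). Ifnar2, a chain of the type I interferon receptor, fell by 0.76 (FDR 0.00567) and by 0.60 (FDR 0.0316) on the log2 scale. Control replicate 1 held 63.4 CPM of Ifnar2 beside 38.2 and 39.6 CPM in the other control livers. Without that liver the values were -0.49 (FDR 0.0275) and -0.32 (FDR 0.152), and the second call was also lost without hAAM replicate 1, 2 or 4 and without the near-identical pair (FDR 0.08). Cntfr, the binding chain for ciliary neurotrophic factor, fell by 0.64 (FDR 0.0371) and by 0.78 (FDR 0.0278). Il20rb, a chain shared by receptors of the IL-20 group, rose by 0.82 in APAP vehicle (FDR 0.0173) and was not called in APAP hAAM livers (0.44, FDR 0.195) but passed without control replicate 1 (0.77, FDR 0.0391) and with scaling by library size alone (0.75, FDR 0.0444). The calls on Cntfr and Il20rb were lost without control replicate 2 or 3, with an FDR up to 0.123 for Cntfr and 0.0638 for Il20rb in APAP vehicle, and that on Cntfr also without APAP vehicle replicate 1, 2, 4 or 5 or, in APAP hAAM livers, hAAM replicate 1 or 2.

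Of 8 other kinase and STAT genes, 5 fell in APAP vehicle and 4 in APAP hAAM livers, beside 14.8% and 9.96% of all genes called lower, and no gene of the list was called higher. Stat2, a partner in type I interferon signalling, fell 1.88-fold in APAP vehicle (147 ± 12 to 78.3 ± 8.78 CPM, FDR 0.000342) and 1.84-fold in APAP hAAM livers (79.9 ± 10.9 CPM, FDR 0.00115). Jak3, a kinase of the common gamma chain receptors, fell 1.65-fold (FDR 0.000145) and 1.69-fold (FDR 0.000269). Stat5a, a factor that growth hormone and several cytokines activate, fell 2.25-fold (FDR 0.00196) and 2.17-fold (FDR 0.0056). Its log2 fold changes of -1.17 and -1.12 became -0.74 (FDR 0.00313) and -0.69 (FDR 0.00825) without control replicate 1, which held 54.0 CPM beside 23.7 and 29.4 CPM in the other control livers. Stat5b fell 1.81-fold (FDR 0.00239) and 1.49-fold (FDR 0.0291), and the second call was lost without control replicate 1 or 3 or hAAM replicate 1, 2 or 4, with an FDR up to 0.138, and without the near-identical pair (FDR 0.0542). The medians over these 8 genes were -0.50 and -0.42 on the log2 scale.

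Of 19 negative regulators, 3 rose and 6 fell in APAP vehicle, beside 15.0% of all genes higher and 14.8% lower, and 2 rose and 6 fell in APAP hAAM livers, beside 10.7% and 9.96%. Ptpn1, a phosphatase that removes phosphate from JAK kinases, fell 1.67-fold (FDR 0.000245) and 1.78-fold (FDR 0.000292). Ptpn2, a related phosphatase, fell 1.63-fold (FDR 0.0017) and 1.58-fold (FDR 0.0052), and Socs4 fell 1.36-fold (FDR 0.00156) and 1.23-fold (FDR 0.0217). The receptor phosphatase gene Ptprt fell from 1.23 ± 0.301 CPM in control to 0.217 ± 0.0379 CPM in APAP vehicle (FDR 0.00103) and 0.328 ± 0.237 CPM in APAP hAAM livers (FDR 0.00798). Cish, an inhibitor that STAT5 induces, was not called with all livers. The log2 fold change in APAP vehicle was -1.38 (FDR 0.0665), and passed without control replicate 3 (-1.81, FDR 0.0262) and with DESeq2 (-1.40, FDR 0.0278), whereas it was -0.30 (FDR 0.668) without control replicate 1. It stood at 53.3, 16.3 and 8.22 CPM in control livers 1 to 3, and the log2 fold change in APAP hAAM livers turned from -0.53 to 0.55 without control replicate 1. For Socs4 the call in APAP hAAM livers was lost without control replicate 2 or 3 or hAAM replicate 1, with an FDR up to 0.0741.

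Genes of transcription and survival that STAT3 can induce formed a further list. Of 18 tested, 2 rose and 4 fell in APAP vehicle, and 2 rose and 3 fell in APAP hAAM livers, near the shares of all genes called (29.8% and 20.7%). Bcl3, a partner of nuclear factor kappa B, fell 4.15-fold (148, 95.4 and 88.4 CPM in control to 23.4 to 30.3 CPM in APAP vehicle, FDR 0.000108) and 4.49-fold in APAP hAAM livers (14.6 to 28.9 CPM, FDR 0.00022). Irf1, an interferon-responsive transcription factor gene, fell 4.07-fold (FDR 0.00706) and 5.13-fold (FDR 0.00801). Control replicate 1 set much of that size, with 189.5 CPM beside 30.2 and 33.8 CPM in the other control livers, and without it the log2 fold changes of -2.02 and -2.36 became -0.62 (FDR 0.00863) and -0.96 (FDR 0.00216). Bcl2l1, which encodes the survival protein Bcl-xL, rose 1.79-fold (FDR 0.00384) and 1.64-fold (FDR 0.0151). Myc, a growth regulator, rose 2.86-fold (FDR 0.00834) and 2.66-fold (FDR 0.0195). Control replicate 1 held 11.3 CPM of Myc beside 4.83 and 3.56 CPM in the other control livers, and without it the log2 fold changes of 1.52 and 1.41 became 2.16 (FDR 0.00133) and 2.05 (FDR 0.00323). The calls in APAP hAAM livers were lost without control replicate 2 or 3 for both genes, and for Myc without hAAM replicate 2 as well, with an FDR up to 0.0671 for Bcl2l1 and 0.0715 for Myc.

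The acute-phase genes are the classical liver targets of IL-6 and STAT3. Of 27 tested, 18 fell and 1 rose in APAP vehicle, beside 14.8% of all genes lower and 15.0% higher, and 19 fell and 0 rose in APAP hAAM livers, beside 9.96% lower and 10.7% higher. Their median log2 fold change was -1.12 and -1.08. Saa3, a serum amyloid A gene, was 209, 188 and 176 CPM in control livers, 2.17 to 5.75 CPM in APAP vehicle and 2.02 to 9.06 CPM in APAP hAAM livers. It fell 56.4-fold (FDR 2.54e-05) and 33.3-fold (FDR 0.000144). Steap4, a metalloreductase gene induced by cytokines, fell 7.83-fold (1278 ± 238 to 163 ± 4.63 CPM, FDR 3.07e-07) and 7.38-fold (173 ± 21.7 CPM, FDR 1.09e-06). Crp, which encodes C-reactive protein, fell 2.98-fold (FDR 1.67e-05) and 2.66-fold (FDR 8.49e-05). Il1r1, the receptor gene for IL-1, which is itself induced in the response, fell 2.81-fold (FDR 4.16e-05) and 2.50-fold (FDR 0.000188).

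Other acute-phase genes are named here after their values were seen. The fibrinogen chain genes Fga, Fgb and Fgg fell 2.27-fold, 2.07-fold and 2.28-fold in APAP vehicle livers, with FDR of 0.000798, 0.0012 and 0.000401. Lbp, which encodes the lipopolysaccharide-binding protein, fell 2.82-fold in APAP vehicle (FDR 0.000212) and 3.31-fold in APAP hAAM livers (FDR 0.000234). Saa1 was 2017, 5359 and 7674 CPM in control livers 1 to 3 and 38.0 to 330 CPM in APAP vehicle livers, and Saa2 showed 1893, 6236 and 9545 CPM and 21.2 to 372 CPM. Control replicate 1, which had the highest Socs3 of all livers, thus had the lowest Saa1 and Saa2 of the control livers. The falls are relative to these control livers, and whether their levels are those of resting liver was not tested. Saa1 and Saa2 are near-identical copies, so the division of counts between them is uncertain. The only acute-phase gene called higher was Serpina3m in APAP vehicle livers, 1.32-fold (FDR 0.0194). In each APAP group 8 of the 27 genes were not called. Lcn2, which encodes lipocalin 2, overlapped between the groups, at 294 to 1054 CPM in control livers. It was 237 to 1041 CPM in APAP vehicle and 234 to 1012 CPM in APAP hAAM livers.

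**Figure D5:**
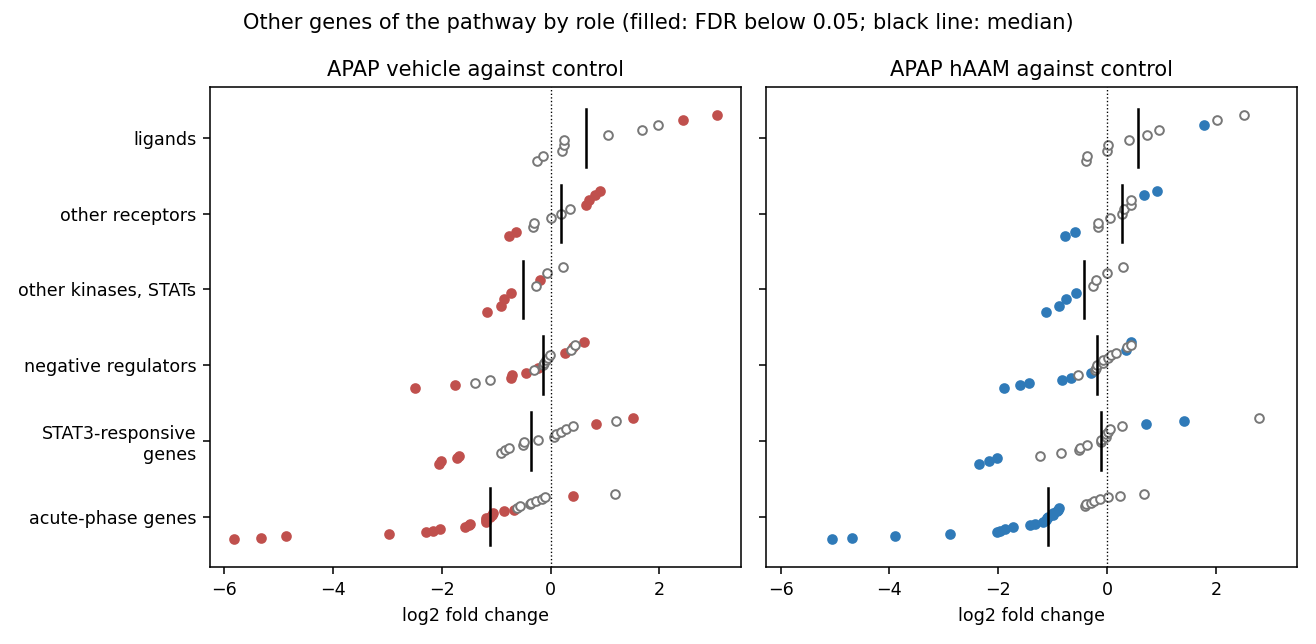
Log2 fold change of 93 other pathway genes by role in each APAP group against control, on one shared axis, with filled points where the edgeR FDR was below 0.05, open points elsewhere and a black line for the median of each role. Acute-phase genes reach the lowest values, with a median of -1.12 and -1.08, and the ligands have the highest median at 0.65 and 0.57.

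Between the treatments, no member and no other pathway gene passed the test. The SE of the difference between treatments was 0.0657 for Jak1, 0.0875 for Stat3, 0.0989 for Il6st, 0.119 for Lifr, 0.132 for Jak2, 0.176 for Osmr, 0.184 for Il10rb, 0.195 for Il6ra and 0.32 for Socs3 on the log2 scale. These errors count the near-identical pair as separate mice. Without the pair 0 members were called between the treatments by edgeR, 1530 of all genes had an unadjusted p under 0.05, and the log2 differences were 0.26 for Lifr (FDR 0.733) and -0.61 for Socs3 (FDR 0.838). A failure to pass the test does not show that the treatments act alike, and for Socs3 the measured difference of -0.53 was not detectable with these livers.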

How the data were processed

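RNA of frozen livers was depleted of ribosomal RNA for directional libraries, and 12 of 14 libraries named in the protocol are analysed here. The authors trimmed with cutadapt 4.6, mapped to GRCm38 using STAR 2.7.1a, and obtained gene-level totals from summarizeOverlaps. The deposited values are raw counts of 24187 genes, and no gene totals fewer than 15. Counting mode and use of strand are not given in the sources used here, so overlapping genes may have exchanged reads.

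Gene names, exons and coordinates came from GENCODE M21 on the same assembly, and 59 genes had no symbol. Analyses used R 4.3.3, edgeR 4.0.16 and DESeq2 1.42.0. Low counts were removed with filterByExpr by group. Counts were scaled with TMM (factors 0.832 to 1.14), and a single edgeR quasi-likelihood fit, not robust, covered the 12 livers (biological coefficient of variation 0.214), with two-sided p-values and Benjamini-Hochberg FDR over all genes. CPM are TMM-scaled, and log2 CPM carry a prior count of 2. The SE is the log2 fold change over the root of F. The test was tried on simulated data.

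The members and gene lists were chosen with earlier results of these data known. Of the other pathway genes, up to 4 per role with the smallest p among those called in either APAP group were named, plus Il6, Osm, Lif, Il11 and Cish. Alternatives changed the tool (DESeq2), the scaling, the filter, the spread estimate, the threshold, the livers in the fit and the replicate block, and left out each liver in turn. Counts of the ligand genes Il6, Osm and Il11 were low, and the effect of depth on precision was not tested.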

Additional observations from a re-analysis of the deposited data

Results flagged for a closer look

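Among 76 sets of 4 or 5 livers of one group, each holding the log2 CPM of a member or named pathway gene or a log2 ratio, 3 had a liver far from the others by Dixon's test, where chance flags about 1 in 20. Lifr in APAP hAAM livers was 7.46 log2 CPM in replicate 2 and 7.77 to 7.82 in the other 3, with a gap of 0.848 of the range. Bcl3 was 3.87 in hAAM replicate 3, below 4.78 to 4.86 in the others, and Crp was 8.21 in the same liver, above 7.83 to 7.87. Without hAAM replicate 2 or 3, the log2 fold changes against control of these genes stayed called.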

How the results depend on the processing

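The calls on Il6st, Lifr, Stat3 and Socs3 against control held in all 21 other settings, with log2 fold changes of -0.74 to -0.31 for Il6st and -1.40 to -0.97 for Lifr in APAP vehicle livers. The number of members called kept within 4 to 7. Pathway genes called in APAP hAAM against control fell from 41 to 27 with only the 2 groups compared and to 21 at an FDR under 0.01. They ranged from 26 to 44 when a liver was left out. Over all genes the number called in that comparison moved as well. It was 4666 in the main fit, 2729 with only the 2 groups compared and 2959 with the replicate block. When a liver was left out it ranged from 2419 to 5456. The cause was not tested. With the replicate block 28 were called, Il10rb lost its calls (FDR 0.0836 and 0.0736), Cntfr likewise (FDR 0.101 and 0.0719), Irf1 in APAP vehicle (FDR 0.0519) and Ifnar2 and Stat5b in APAP hAAM livers (FDR 0.084 and 0.0819) lost theirs, and Il6st in APAP hAAM against vehicle turned to 0.0625. The labels do not say whether the numbers pair the mice. Between groups, 10 same-numbered pairs had correlations of -0.458 to 0.385 and 37 other pairs -0.477 to 0.502. These ranges cannot settle whether mice were paired.

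Scaling by library size alone moved the median over all genes to 0.36, 0.32 and -0.04, and turned Osmr (0.16 and 0.19), Jak1 (0.28, FDR 0.0489, and 0.25) and Jak2 (0.26 and 0.23) against control, Socs4 in APAP hAAM livers (0.007), and Jak1 (-0.0241), Jak2 (-0.0309) and Stat3 (-0.018) between treatments. Relative to those medians, Il6st, Lifr, Stat3 and Socs3 stayed low. Lif (2.87) and Il20rb (0.75) in APAP hAAM livers passed with library size alone, as did Il6ra (0.81 and 0.65), which also passed in APAP vehicle with only the 2 groups compared (FDR 0.0369). Library size alone ended the calls on Ptpn2 and Cntfr in both APAP groups, on Socs4 in both and on Ifnar2 and Stat5b in APAP hAAM livers, and comparing only the 2 groups ended those on Il10rb, Cntfr, Ifnar2, Stat5b and Bcl2l1 in APAP hAAM livers (FDR 0.0516 to 0.0947).

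Leaving out a liver turned the sign of values that were not called. Against control the ranges were -0.21 to 0.15 for Jak2 in APAP vehicle and, in APAP hAAM livers, -0.20 to 0.16 for Jak2, -0.23 to 0.0182 for Osmr and -0.96 to 0.55 for Cish. Between treatments they were -0.27 to 0.0397 for Il6ra, -0.07 to 0.0584 for Il6st, -0.0385 to 0.16 for Osmr, -0.0344 to 0.21 for Il10rb, -0.0214 to 0.0494 for Jak1, -0.0402 to 0.0575 for Jak2 and -0.0105 to 0.0811 for Stat3.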
